A study of Mus musculus with 126 samples.

Results

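Gene expression was compared between mouse embryonic stem cells without DNA methyltransferases and wild type cells in which histone deacetylases were inhibited. The comparison takes 4 of the 8 RNA-seq libraries of a series of 126 samples, chosen by their labels: the 2 TKO libraries treated with DMSO and the 2 J1 wild type libraries treated with TSA. All cells were of the J1 strain background and were grown on gelatin in medium with serum and LIF, the cytokine that keeps mouse embryonic stem cells self-renewing. TKO cells carry the genotype Dnmt1-/-, Dnmt3a-/-, Dnmt3b-/-, and whether they are 1 clone is not given in the sources used here. TSA is Trichostatin A, labelled as 5 ng/µl, and DMSO is its solvent, used alone at 0.0033%, each for 36 h. The compared groups therefore differ in genotype and in treatment, and each group is set against the other and not against an untreated parent. Below, the 2 J1 libraries given TSA are called TSA-treated cells, and the 2 J1 libraries given only DMSO are called untreated cells and serve only to describe where wild type cells lay without the inhibitor; the 2 libraries of TKO cells treated with TSA appear in the figures and entered the estimate of the spread.

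DNA methylation at CpG dinucleotides is copied by Dnmt1 and laid down by Dnmt3a and Dnmt3b, and in embryonic stem cells it is known for silencing germline genes, testis gene families on the X chromosome and one parental copy of imprinted genes. Histone deacetylases remove acetyl groups from histone tails, act in corepressor complexes with NCoR, CoREST, NuRD or Sin3, and keep many developmental genes at a low level. Both systems restrain transcription, so the comparison sorts genes by which of the 2 perturbations left them at the higher level.

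Total counts ran from 13280631 to 15542527 over the 8 libraries, and no pair of replicates agreed within sampling noise (chi-square per degree of freedom 4.54 for TKO DMSO and 5.73 for wild type TSA), so each library was counted as 1 replicate. The series design calls the replicates biological but does not say whether they were separate cultures, so p-values measure the spread between these libraries. Levels are normalised CPM, read counts scaled to the effective library total, and a log2 difference is TKO DMSO minus wild type TSA, so a positive value means more RNA in TKO cells. A gene was called at a Benjamini-Hochberg adjusted p below 0.05 in edgeR's quasi-likelihood test. The embryonic stem cell markers fixed for the check of the label, 8 genes, were above 0 in every library and summed to 4143 and 4501 CPM in TKO DMSO and to 2124 and 1895 CPM in wild type TSA.

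The deleted genes and 2 genes known to respond to deacetylase inhibitors were examined first. Dnmt3b (chromosome 2, 153649449 to 153687730, coordinates as deposited, mm10) was at 46.2 and 43.7 CPM in TKO DMSO and 378 and 343 in TSA-treated cells (log2 difference -3.0 ± 0.12 (SE), edgeR adjusted p = 1.7e-07). Dnmt3a was at 25.9 and 27.0 against 152 and 163 CPM and Dnmt1 at 135 and 126 against 374 and 360.1 CPM. All 3 were lower in both TKO libraries than in any wild type library. Reads were counted over whole genes and the labels do not say which exons were deleted, so these levels check the labels by direction only. Cdkn1a, the cell cycle inhibitor p21, was at 38.4 and 36.8 CPM in TSA-treated cells and 21.4 and 25.0 in TKO DMSO (log2 difference -0.70 ± 0.14 (SE), edgeR adjusted p = 0.0012). H1f0, the linker histone H1.0, was at 120.02 and 98.1 CPM in TSA-treated cells, 63.4 and 90.2 in TKO DMSO and 40.1 and 50.3 in untreated cells. Its difference of -0.51 ± 0.16 (SE) was called (edgeR adjusted p = 0.02), but fell to -0.27 and out of the calls when TKO DMSO library 1 was left out and to -0.35 without wild type TSA library 1, and untreated wild type cells lay below both groups.

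The compared groups were far apart. Of 15822 genes tested, 9115 (57.6%) were called, 4427 (28.0%) higher in TKO DMSO and 4688 (29.6%) higher in TSA-treated cells. The larger differences lay mostly on the inhibitor side. At least 2-fold apart and called were 1231 genes (7.78%) higher in TKO DMSO and 2868 genes (18.1%) higher in TSA-treated cells. Scaling bears on the balance of the smaller calls: the median of all tested genes was 0.00 here, -0.12 with upper quartile factors and -0.18 with total counts only, and the split of the calls became 3473 against 5408 and 3009 against 5874. Changes below are given relative to the scaling used here. The shares of 28.0% and 29.6% are the background for the counts of each gene group. They hold over all levels together, and the direction changed with the level of a gene, as given below. The compared libraries did not overlap for 81.3% of all tested genes, so a missing overlap is common here.

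**Figure D1:**
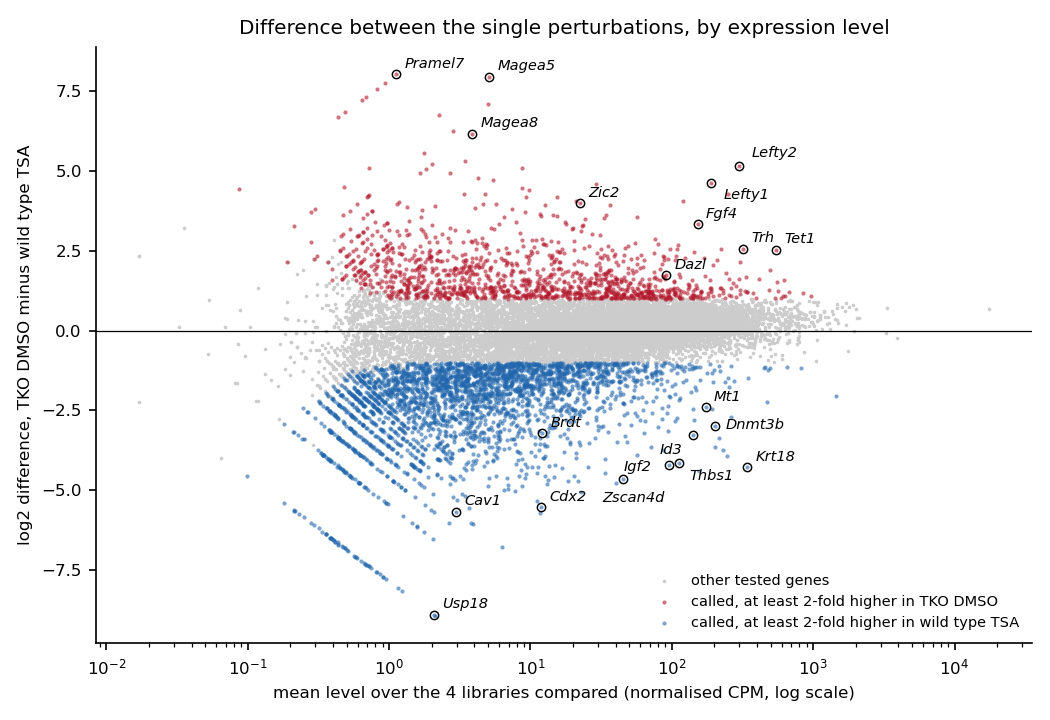
Log2 difference, TKO DMSO minus wild type TSA, against the mean level over the 4 libraries compared (normalised CPM, log axis) for the 15822 genes tested, one point a gene. Red points are called and at least 2-fold higher in TKO DMSO, blue points in wild type TSA, and grey points are the others; the 2868 blue points crowd at low levels, and the 1231 red points are spread over all levels.

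The direction changed with the level of the gene. The tested genes were ranked by mean level over the 8 libraries and cut into 4 bins of about equal size. Among the 3956 genes of lowest level, at most 4.20 CPM, 483 were called at least 2-fold higher in TKO DMSO and 1547 in TSA-treated cells. Among the 3956 genes of highest level, at least 67.4 CPM, the counts were 172 and 118, and of all calls in that bin 1799 were higher in TKO DMSO against 590 higher in TSA-treated cells. The median difference over the 4 bins, lowest first, was -0.69, -0.19, 0.08 and 0.21. Genes close to silent in untreated cells had at most 3 counts in each wild type DMSO library. They made up 3.38% of all tested genes, 4.47% of the 1231 and 10.3% of the 2868. The filter on low counts keeps a gene that reaches the minimum in any 2 libraries, so such genes were tested only where another group expressed them. These shares, and the lean of the lowest bin, can thus be partly set by the filter. No TKO DMSO counts at all were found for 54 of the 2868 genes, and no wild type TSA counts for 8 of the 1231.

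The level in untreated wild type cells places them relative to both groups. A level was described as close when it was within 1.5-fold, after adding 0.25 CPM. Of the 1231 genes higher in TKO DMSO, untreated cells were close to wild type TSA only for 310 (25.2%), close to TKO DMSO only for 611 (49.6%), between the groups for 216 and below both for 52. Of the 2868 genes higher in TSA-treated cells, they were close to TKO DMSO only for 1503 (52.4%), close to wild type TSA only for 459 (16.0%), between for 669 and below both for 169. In both sets the most frequent case was thus a gene at which TSA-treated cells, and not TKO cells, stood away from untreated cells. These shares are a description with no test, since wild type DMSO is the control for both groups.

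**Figure D2:**
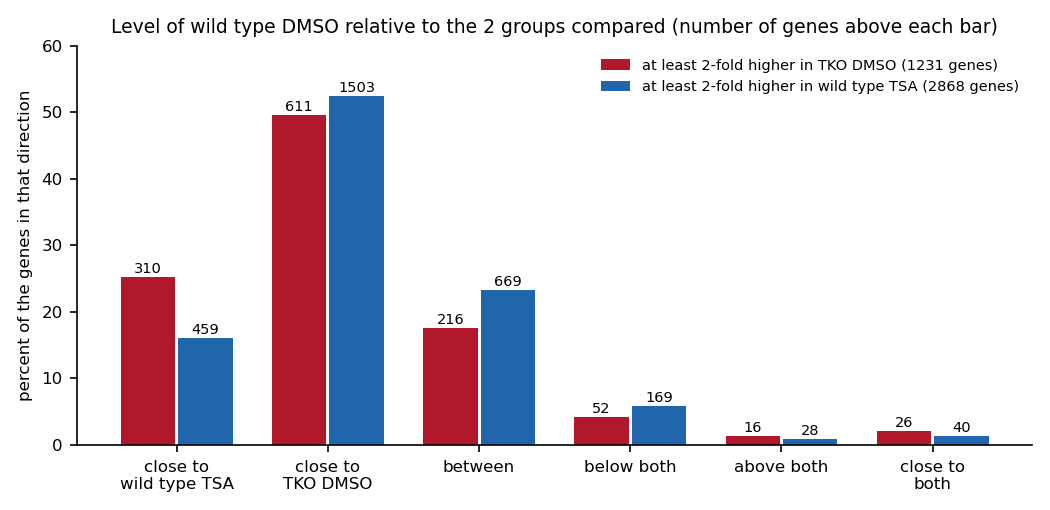
Share of genes (percent of each direction) by where untreated wild type cells lay relative to the compared groups, for the 1231 genes called and at least 2-fold higher in TKO DMSO and the 2868 higher in TSA-treated cells, with the number of genes above each bar. The tallest bars are the 611 and 1503 genes at which untreated cells were close to TKO DMSO only.

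Gene families expressed in testis and encoded on the X chromosome held 25 of the 1231 genes called and at least 2-fold higher in TKO DMSO, some of them near the floor in wild type cells. Of 63 such genes in the table (Magea, Mageb, Rhox, Xlr, Nxf and neighbours), 39 passed the filter on low counts, and 26 of these were called higher in TKO DMSO against 2 higher in TSA-treated cells, with a median difference of 2.29 (2.26 with genes without counts at their bound) against 0.00 over all tested genes. The filter keeps a gene that reaches the minimum in any 2 libraries, so a gene silent in wild type cells enters only where another group expresses it. The 8 Magea genes, which encode MAGE proteins that partner ubiquitin ligases and are known as cancer-testis antigens, summed to 25.2 and 33.0 CPM in TKO DMSO. Their sum was 0.977 and 1.36 CPM in TSA-treated cells and 0.428 and 0.486 in untreated cells. Both wild type groups were thus near the floor, and TKO libraries stood apart from all 4 wild type libraries.

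Magea5 (chromosome X, 155053061 to 155061553) had 10.1 and 10.3 CPM in TKO DMSO and 0.0611 and 0 in TSA-treated cells, which is 1 count in 1 of the wild type TSA libraries. The ratio was 333 (95% exact counting interval 56.2 to 12513; log2 difference 7.96 ± 0.60 (SE), edgeR adjusted p = 3.2e-06). Magea8 (chromosome X, 154985775 to 154995850) had 5.34 and 9.90 CPM in TKO DMSO against 0.0611 and 0.136 in TSA-treated cells, a ratio of 77.3 with an interval of 26.4 to 382. Counting intervals and floors cover counting error only, because amplified reads are not independent molecules. Magea2, Magea3 and Magea6 had no counts in any wild type library and 17 to 32 counts in each TKO DMSO library, so their levels were at least 9.73-fold, 7.13-fold and 8.46-fold above the floor of 3 counts per library. Members of these families are near-identical copies, and the handling of reads that fit several places is not given in the sources used here, so single members are more uncertain than the sums.

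The stretches of 120 bases before the start of Magea2 and Magea8 are shown because Magea genes were near the floor in all wild type libraries and because, beside the germline promoters printed further on, they hold few CpG sites. They are from RefSeq (GRCm38.p6, the assembly of mm10), read 5′ to 3′ on the gene's strand, with each CG in capitals:
Magea2, chrX:155033293-155033412, minus strand: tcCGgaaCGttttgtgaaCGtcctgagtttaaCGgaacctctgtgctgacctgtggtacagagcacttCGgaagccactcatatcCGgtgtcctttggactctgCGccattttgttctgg
Magea8, chrX:154995851-154995970, minus strand: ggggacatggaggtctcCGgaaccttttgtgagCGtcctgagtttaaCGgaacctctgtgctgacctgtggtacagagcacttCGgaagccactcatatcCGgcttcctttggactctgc
Magea2 has 7 CpG sites and Magea8 has 5 in this stretch, and the genes share an unbroken run of 70 bases. None of 7 motifs searched on both strands of the 300 bases from 250 before to 50 after the start was found in either gene. The motifs were CCGGAAG (GABPA), CACGTG (MAX), GCGCATGC (NRF1), GGGCGG (SP1), AAGATGGC (YY1), GCGGGAA (E2F6) and TATAAA, the last chosen after the sequences were seen, and partial overlaps between motifs were not removed.

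The Rhox2 and Xlr families gave the same direction, with a smaller gap between their summed levels than Magea. The 8 Rhox2 homeobox genes, of the reproductive homeobox cluster, summed to 4.17 and 5.39 CPM in TKO DMSO against 0.366 and 0.748 in TSA-treated cells. The 10 Xlr genes, related to the meiotic protein Sycp3, summed to 26.4 and 39.1 against 6.17 and 10.9 CPM. The compared libraries of both families lay apart. Pramel3 (chromosome X, 135302316 to 135312636), of the PRAME family of leucine-rich proteins, had 8.55 and 11.5 CPM in TKO DMSO and 1 count in each wild type TSA library (ratio 155, interval 42.5 to 1287). Nxf3, a testis member of the mRNA export factors that was named after its values were seen, had 44.7 and 44.5 CPM against 2.99 and 4.89 in TSA-treated cells and 3.64 and 6.24 in untreated cells (log2 difference 3.51 ± 0.24 (SE), edgeR adjusted p = 2e-06). The X-linked direction was not uniform: Rhox10 and Mageb16, also named after their values were seen, were called higher in TSA-treated cells, Rhox10 at 5.07 and 8.09 against 1.37 and 3.13 CPM and Mageb16 at 15.4 and 16.9 against 7.39 and 9.46 CPM.

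Untreated cells lay close to wild type TSA for 16 of the 26 X-linked genes called higher in TKO DMSO and below both groups for the other 10, among them Magea4, Rhox1, Nxf2 and Xlr3c. Over the whole chromosome, 61 of 632 tested X-linked genes (9.65%) were called and at least 2-fold higher in TKO DMSO, and the share on single autosomes ran from 5.18% to 11.0%. The share for the whole X chromosome thus lay within the range of the autosomes. The Y chromosome lay outside it, with 5 of only 8 tested genes (62.5%) called and at least 2-fold higher in TKO DMSO.

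**Figure D3:**
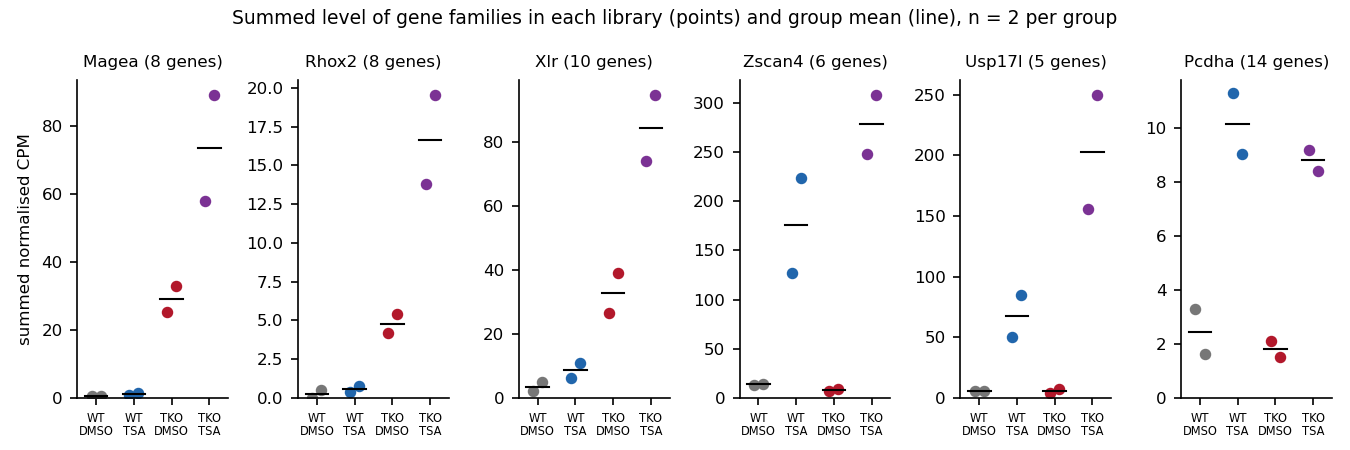
Summed normalised CPM (linear axes from 0) of 6 gene families in each of the 8 libraries; points are libraries, 2 a group, and the line is the group mean. Magea, Rhox2 and Xlr are higher in TKO DMSO than in TSA-treated cells, and Zscan4, Usp17l and Pcdha are lower, without overlap of the libraries.

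Germline genes outside those families were called in both directions. Of 52 in the table, 50 were tested, 19 were called higher in TKO DMSO, 18 higher in TSA-treated cells and 13 were not called. The called shares were 38% and 36% of the group, beside 28.0% and 29.6% of all tested genes. The median difference was -0.30, or -0.02 without TKO DMSO library 1 and 0.00 without wild type TSA library 2. Both directions held meiotic chromosome and piRNA pathway genes. Fkbp6 (chromosome 5, 135291704 to 135349991), a chaperone partner needed for transposon silencing in the male germline, had 54.4 and 57.6 CPM in TKO DMSO, 2.38 and 2.24 in TSA-treated cells and 1.93 and 4.30 in untreated cells (log2 difference 4.59 ± 0.25 (SE), edgeR adjusted p = 7.4e-07). Hormad1, an axis protein of meiotic chromosomes, had 44.7 and 40.7 CPM in TKO DMSO and 2.93 and 5.78 in TSA-treated cells (log2 difference 3.31 ± 0.31 (SE), edgeR adjusted p = 1.2e-05). For both genes the TKO DMSO libraries stood above all 4 wild type libraries.

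A further group of germline genes was raised above untreated cells in both compared groups, and more so in TKO cells. Untreated cells lay below both groups for 9 of the 19 genes called higher in TKO DMSO: Dazl, Asz1, Tdrd9, Syce1, Taf9b, Slc25a31, Tuba3b, Ctcfl and Dpep3. Dazl (chromosome 17, 50279394 to 50293599), an RNA-binding protein required for germ cell development and named after its values were seen, had 8.42 and 12.3 CPM in untreated cells, 25.8 and 58.2 in TSA-treated cells and 134 and 148 in TKO DMSO. Asz1, a piRNA pathway protein named in the same way, had 0.428 and 0.729, 1.95 and 4.55 and 16.4 and 18.5 CPM in the same order. The compared groups did not overlap for either gene (Dazl: log2 difference 1.75 ± 0.27 (SE), edgeR adjusted p = 0.00029; Asz1: log2 difference 2.44 ± 0.27 (SE), edgeR adjusted p = 2.9e-05). Tuba3b, a testis tubulin, had 1.59 and 4.89 CPM in TSA-treated cells and 26.1 and 38.5 in TKO DMSO. The starts of Dazl and Asz1 are shown as the counterpart to Magea, since they are rich in CpG:
Dazl, chr17:50293621-50293740, minus strand: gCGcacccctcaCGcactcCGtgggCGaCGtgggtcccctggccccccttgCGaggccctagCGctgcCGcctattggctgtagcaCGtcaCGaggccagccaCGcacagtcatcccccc
Asz1, chr6:18109062-18109181, minus strand: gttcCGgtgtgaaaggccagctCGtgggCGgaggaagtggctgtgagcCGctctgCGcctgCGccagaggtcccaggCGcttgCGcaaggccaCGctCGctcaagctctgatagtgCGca
Each stretch of 120 bases holds 11 CpG sites. The 300 bases around the RefSeq start of Dazl, which lies 21 bases from the deposited one, hold GCGCATGC, found in 2.71% of 32851 promoters, and those of Asz1 hold CCGGAAG, found in 8.86%, and GGGCGG, found in 35.7%.

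Other germline genes were higher in TSA-treated cells. Brdt (chromosome 5, 107331194 to 107387058), the testis member of the bromodomain proteins that read acetylated histones, had 17.0 and 26.8 CPM in TSA-treated cells, 2.39 and 2.33 in TKO DMSO and 1.71 and 2.11 in untreated cells (log2 difference -3.21 ± 0.30 (SE), edgeR adjusted p = 1.1e-05). Tex15, a germline protein of transposon silencing named after its values were seen, had 349 and 436 CPM in TSA-treated cells, 114 and 118 in TKO DMSO and 74.4 and 88.1 in untreated cells (log2 difference -1.76 ± 0.12 (SE), edgeR adjusted p = 2e-06). TSA-treated libraries were high and both other groups low for these genes, and untreated cells were close to TKO DMSO for 10 of the 18, with Mael, Rec8, Sycp2 and Nanos3 among them. Tdrd1, a Tudor protein of the piRNA pathway, reached the same direction from the other end: it was at 1.98 and 1.75 CPM in TKO DMSO, 12.3 and 8.70 in TSA-treated cells and 13.1 and 10.1 in untreated cells, so the TKO libraries alone were low. Tex19.1, Stag3 and Taf7l lay above untreated cells in both groups and were called higher in TSA-treated cells, with log2 differences of -1.24, -0.58 and -1.02.

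Among primitive and definitive endoderm genes, 6 were called and at least 2-fold higher in TKO DMSO, with the lineage regulator Gata6 among them. Another 4 were called and at least 2-fold higher in TSA-treated cells. Of 21 tested genes, 8 were called higher in TKO DMSO, 4 higher in TSA-treated cells and 9 were not called (median 0.45, or 0.23 without wild type TSA library 1). Gata6, a transcription factor of primitive endoderm, had 3.97 and 6.55 CPM in TKO DMSO and 1.22 and 1.5 in TSA-treated cells (log2 difference 1.95 ± 0.36 (SE), edgeR adjusted p = 0.0009). Cubn, a scavenger receptor of visceral endoderm, had 41.3 and 41.0 CPM against 3.79 and 5.64, and Lama1, a laminin chain of the basement membrane, had 333 and 352 against 68.5 and 78.9 CPM. Untreated cells were close to wild type TSA for 6 of the 8, with Gata6, Cubn and Lama1 among them. Sox17, named after its values were seen, lay at 3.90 and 2.91 CPM in TKO DMSO and 2.44 and 4.15 in TSA-treated cells with overlap of the groups and at 0.500 and 0.486 in untreated cells. The summed level of the 6 primitive endoderm markers fixed for the check of cell types was 36.1 and 38 CPM in TKO DMSO, 24 and 26.3 in TSA-treated cells and 13.8 and 16.4 in untreated cells. Of these 6, 3 were called higher in TKO DMSO and 0 higher in TSA-treated cells. In bulk RNA, fewer cells of a type and less RNA per cell cannot be told apart.

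Most pluripotency genes were higher in TKO cells than in TSA-treated cells. Of 30 tested, 25 were called higher in TKO DMSO, 2 higher in TSA-treated cells (1 without TKO DMSO library 1 or wild type TSA library 1) and 3 were not called, with a median of 1.18. Pou5f1 (Oct4), named after its values were seen as were Esrrb, Zfp42, Nanog and Dppa3, had 933 and 949 CPM in TKO DMSO and 457 and 361 in TSA-treated cells, with untreated cells at 936 and 891 (log2 difference 1.20 ± 0.14 (SE), edgeR adjusted p = 3.5e-05). The TSA-treated libraries alone were low. Esrrb, an orphan nuclear receptor of the naive state, had 458 and 538 CPM against 127 and 96.5 (log2 difference 2.15 ± 0.16 (SE), edgeR adjusted p = 3e-06), and Zfp42 (Rex1) had 862 and 1014 against 349.8 and 271 CPM. For both, untreated cells lay between the groups, at 285 and 343 and 519 and 668 CPM.

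Nuclear receptors and Tbx3 gave larger ratios. Nr0b1 (Dax1) had 120.36 and 145 CPM in TKO DMSO and 19.5 and 17.1 in TSA-treated cells, a ratio of 7.26. Nr5a2, which binds the Pou5f1 promoter, had 91.3 and 101 against 16.9 and 11.6 CPM, a ratio of 6.74. Tbx3 had 40.8 and 48.6 against 6.54 and 7.68 CPM, a ratio of 6.29. Untreated cells lay between the groups for 11 of the 25, all 3 of these included, close to TKO DMSO only for 8 and close to both for 5. Nanog was the 1 gene close to wild type TSA only, at 237 and 265 CPM in untreated cells, 185 and 191 in TSA-treated cells and 375 and 465 in TKO DMSO. Dppa3 (Stella), a maternal factor that protects methylation in the zygote, went the other way at 62.2 and 78.5 CPM in TSA-treated cells against 28.3 and 32.4 in TKO DMSO (log2 difference -1.21 ± 0.24 (SE), edgeR adjusted p = 0.0012).

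Several targets of Nodal signalling were many times higher in TKO cells than in TSA-treated cells. Lefty2 (chromosome 1, 180893119 to 180899102) and Lefty1 (chromosome 1, 180935039 to 180938401) encode secreted antagonists of Nodal that are induced by Nodal itself. Lefty2 had 594 and 563 CPM in TKO DMSO, 24.1 and 7.54 in TSA-treated cells and 243 and 338 in untreated cells, a ratio of 36.5 between the compared groups (log2 difference 5.18 ± 0.50 (SE), edgeR adjusted p = 1.3e-05). Lefty1 had 390.0 and 334, 21.2 and 7.68 and 358 and 316 CPM in the same order, a ratio of 25.1 (log2 difference 4.63 ± 0.39 (SE), edgeR adjusted p = 5.7e-06). The TSA-treated libraries were low and lay apart from each other by more than the untreated ones did, and no libraries of the compared groups overlapped. Gdf3, a ligand of the same family, had 209 and 162 against 36.2 and 26.7 CPM.

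The ligand itself was not called. Nodal, named after its values were seen, had 102 and 113 CPM in TKO DMSO and 109 and 122 in TSA-treated cells with overlapping libraries (log2 difference -0.10 ± 0.14 (SE); edgeR adjusted p = 0.54). The coreceptor Tdgf1 (Cripto) was at 702 against 386 CPM on average, a log2 difference of 0.86. The transducers Smad2 (0.41) and Smad3 (-0.70) were called in opposite directions, and Smad4 (0.18) was not called. BMP targets were higher in TSA-treated cells. Id1 and Id3 encode inhibitors of basic helix-loop-helix factors. Id1 had 302 and 349.6 CPM in TSA-treated cells and 63.5 and 56.3 in TKO DMSO, and Id3 had 216 and 294 against 28.4 and 24.1 CPM (log2 difference -3.28 ± 0.22 (SE), edgeR adjusted p = 2e-06). Bmp4, a ligand named after its values were seen, had 49.5 and 45.4 CPM in TSA-treated cells, 19 and 22.1 in TKO DMSO and 24.6 and 21.2 in untreated cells. Over 28 tested genes of the Nodal and BMP pathways, 10 were called higher in TKO DMSO and 9 higher in TSA-treated cells (35.7% and 32.1% of the group), near the 28.0% and 29.6% of all tested genes. Their median of 0.01 became -0.11 with upper quartile factors and -0.18 with total counts only.

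Fgf4, the FGF that embryonic stem cells secrete and a classic Oct4 and Sox2 target, had 242 and 312 CPM in TKO DMSO, 30.9 and 23.4 in TSA-treated cells and 147 and 219 in untreated cells (log2 difference 3.35 ± 0.20 (SE), edgeR adjusted p = 1.1e-06). The compared groups were 10.2-fold apart without overlap. Its start is shown as an example of a CpG-rich promoter whose RNA was at the higher level in cells without methylation:
Fgf4, chr7:144861266-144861385, plus strand: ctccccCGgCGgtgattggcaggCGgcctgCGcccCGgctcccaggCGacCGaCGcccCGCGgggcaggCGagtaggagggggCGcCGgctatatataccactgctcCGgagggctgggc
The stretch holds 14 CpG sites, and GGGCGG was found in its 300-base window. Targets of ERK signalling were called in both directions. Etv5, Spred2 and Myc, named after their values were seen, were called higher in TKO DMSO, with log2 differences of 0.98, 0.68 and 0.74. The ERK phosphatases Dusp4 and Dusp5 and the immediate early gene Fos were higher in TSA-treated cells, Dusp4 at 173 and 141 against 32.8 and 27.9 CPM, Dusp5 at 18.1 and 19 against 6.5 and 5.02 and Fos at 9.89 and 15.2 against 3.63 and 3.64. Of 20 tested genes of the FGF and ERK pathway, 4 were called higher in TKO DMSO and 8 higher in TSA-treated cells (median -0.35, between -0.55 and -0.17 with 1 library left out). That is 20% and 40% of the group, beside 28.0% and 29.6% of all tested genes. Among genes of the formative and primed states, Zic2 was 16.1-fold higher in TKO DMSO, at 41.9 and 43.1 against 2.50 and 2.79 CPM, and untreated cells at 36.8 and 45.1 were close to TKO DMSO. The mesoderm factor T (Brachyury) was higher in TSA-treated cells at 4.70 and 2.11 against 0.274 and 0.509 CPM, with untreated cells above both at 12.8 and 6.57. Of these 14 tested genes, 5 were called higher in TKO DMSO (3 without TKO DMSO library 1) and 4 higher in TSA-treated cells. The shares of 35.7% and 28.6% are near the 28.0% and 29.6% of all tested genes.

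**Figure D4:**
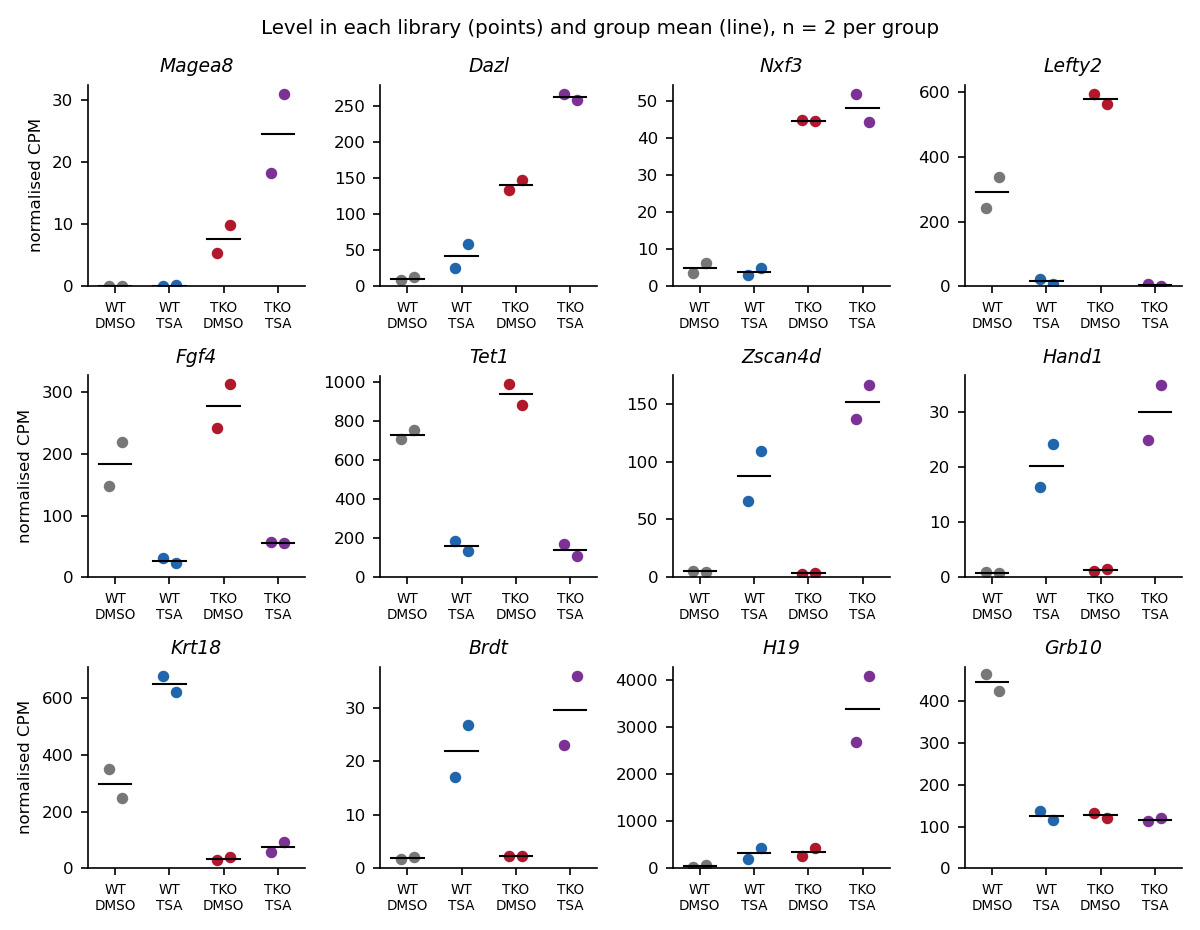
Normalised CPM (linear axes from 0) of 12 genes in each of the 8 libraries; points are libraries, 2 a group, and the line is the group mean. Magea8, Dazl, Nxf3, Lefty2, Fgf4 and Tet1 are higher in TKO DMSO than in TSA-treated cells, Zscan4d, Hand1, Krt18 and Brdt are lower, and the groups overlap for H19 and Grb10.

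Enzymes that remove or read DNA methylation differed as well. Tet1 (chromosome 10, 62804570 to 62880014), which oxidises 5-methylcytosine, had 991 and 886 CPM in TKO DMSO, 185 and 137 in TSA-treated cells and 709 and 755 in untreated cells (log2 difference 2.54 ± 0.19 (SE), edgeR adjusted p = 3.4e-06). Tet2 had 294 and 338 against 85.2 and 67.0 CPM, with untreated cells at 202 and 262 (log2 difference 2.05 ± 0.15 (SE), edgeR adjusted p = 3.1e-06). For both the TSA-treated libraries alone were low, and Tet3 was not called at 14.7 and 14.4 CPM on average. Zfp57 and Trim28, which together hold methylation at imprinted regions, were also higher in TKO DMSO, Zfp57 at 262 and 276 against 127 and 97.4 CPM and Trim28 at 2428 and 2454 against 1447 and 1368 CPM. Mbd2, a methyl-CpG binder of the NuRD complex, was higher in TSA-treated cells at 31.9 and 34.4 against 13.8 and 14.3 CPM (log2 difference -1.24 ± 0.12 (SE), edgeR adjusted p = 1.6e-05). Of 17 tested genes of this group, 8 were called higher in TKO DMSO and 4 higher in TSA-treated cells. The 4 were fewer without wild type TSA library 2. The called shares were 47.1% and 23.5% of the group, beside 28.0% and 29.6% of all tested genes.

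Acetyltransferase and corepressor genes that were called were mostly higher in TKO cells, and the deacetylases were called in both directions. Abundant genes as a whole also leaned to TKO cells. Of the 3956 tested genes of highest level, 1799 were called higher in TKO DMSO and 590 higher in TSA-treated cells (median 0.21). The groups were not matched for level. Of 17 tested acetyltransferases and bromodomain readers, 11 were called higher in TKO DMSO and Brdt alone higher in TSA-treated cells (median 0.31). These are 64.7% and 5.88% of the group, beside 28.0% and 29.6% of all tested genes. The 11 became 8 with upper quartile factors or total counts only and were fewer without any 1 of the 4 compared libraries. Kat2b (PCAF), a histone acetyltransferase, had 138 and 137 CPM in TKO DMSO and 33.1 and 31.0 in TSA-treated cells (log2 difference 2.10 ± 0.14 (SE), edgeR adjusted p = 1.8e-06), and Crebbp (CBP) had 77.8 and 78.4 against 36.1 and 35.6 CPM. Of 25 tested corepressor genes, 13 (52%) were called higher in TKO DMSO and 4 (16%) higher in TSA-treated cells. Their median of 0.30 became 0.19 with upper quartile factors and 0.12 with total counts only. Ncor1 had 381 and 372 against 150.1 and 148 CPM and Rest, which recruits CoREST and Sin3, had 445 and 476 against 204 and 187 CPM. Untreated cells were close to TKO DMSO only or to both groups for all 13. Of the deacetylases themselves, 4 of 14 were called in each direction (28.6%), near the 28.0% and 29.6% of all tested genes. The 4 higher in TKO DMSO became 1 with total counts only and 2 without either TKO DMSO library or wild type TSA library 2, and the 4 higher in TSA-treated cells became 2 without TKO DMSO library 1 and 7 with total counts only. Hdac7, a class IIa enzyme, was the 1 deacetylase over 2-fold apart, at 7.88 and 8.02 CPM in TSA-treated cells and 1.23 and 1.82 in TKO DMSO, with untreated cells at 8.64 and 4.62. Sirt1, a deacetylase that TSA does not inhibit, was higher in TKO DMSO at 209.8 and 204 against 122 and 139 CPM.

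Genes of the 2-cell embryo were mostly higher in TSA-treated cells. They form a programme that a small share of mouse embryonic stem cells enters spontaneously. Of 23 tested genes, 19 were called higher in TSA-treated cells, all at least 2-fold, 3 higher in TKO DMSO, and 1 was not called, with a median of -3.54. The 6 Zscan4 genes, zinc finger factors of that stage, summed to 127 and 224 CPM in TSA-treated cells, 6.64 and 8.88 in TKO DMSO and 13.4 and 13.9 in untreated cells. TSA-treated libraries were high, and the TKO libraries lay below the untreated ones. Zscan4d (chromosome 7, 11161643 to 11166148, named after its values were seen) had 65.5 and 109 CPM against 3.08 and 3.86 (log2 difference -4.65 ± 0.27 (SE), edgeR adjusted p = 9.8e-07), and Zscan4c had 29.1 and 54.3 against 1.57 and 1.6 CPM (log2 difference -4.71 ± 0.34 (SE), edgeR adjusted p = 2.7e-06). Dux, a transcription factor that activates this programme, and Usp17le, of a deubiquitinase family, were both named after their values were seen. Dux had 2.38 and 4.89 CPM in TSA-treated cells, 0.479 and 0.364 in TKO DMSO and 0.143 and 0.162 in untreated cells. The 5 Usp17l genes summed to 49.8 and 84.6 CPM in TSA-treated cells and 4.24 and 7.28 in TKO DMSO. These families too consist of near copies, so single members are uncertain.

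Stretches before the start of 3 Zscan4 genes are shown because they hold fewer CpG sites than those of Dazl and Asz1, whose RNA was higher in TKO cells:
Zscan4c, chr7:11005625-11005744, plus strand: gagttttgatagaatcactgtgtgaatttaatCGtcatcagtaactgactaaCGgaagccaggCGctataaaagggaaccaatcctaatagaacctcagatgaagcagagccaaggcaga
Zscan4d, chr7:11166149-11166268, minus strand: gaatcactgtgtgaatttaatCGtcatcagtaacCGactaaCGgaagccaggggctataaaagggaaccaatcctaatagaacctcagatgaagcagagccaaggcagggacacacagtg
Zscan4f, chr7:11397795-11397914, plus strand: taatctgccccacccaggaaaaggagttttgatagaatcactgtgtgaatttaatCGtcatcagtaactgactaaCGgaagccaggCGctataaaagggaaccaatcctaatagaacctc
Each holds 3 CpG sites. The longest run shared by Zscan4c and Zscan4f was 97 bases, by Zscan4c and Zscan4d 55 and by Zscan4d and Zscan4f 34. TATAAA was found in all 3 windows and in 13.6% of 32851 promoters. These few sequences are examples and do not stand for the genes of either direction.

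Against the rest of the list, Pramel7 (chromosome 2, 87489088 to 87492418) and Pramel6 were higher in TKO DMSO. Pramel7, a leucine-rich protein of the inner cell mass that acts on Uhrf1, had 2.33 and 2.18 CPM in TKO DMSO and no counts in TSA-treated cells, so it was at least 11.6-fold above the floor (log2 difference 8.04 ± 0.91 (SE), edgeR adjusted p = 5.4e-05). Pramel6 had 3.01 and 5.89 CPM and 1 count in the 2 wild type TSA libraries. Untreated cells lay between the groups for both, at 1.07 and 1.38 and 1.86 and 2.19 CPM.

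Trophoblast genes that were called were higher in TSA-treated cells. Of 39 in the table, 19 were tested and 17 were called higher in TSA-treated cells, all at least 2-fold. The other 2, Tfap2a and Ascl2, were not called (median -3.23). The 17 are 89.5% of the tested members, beside 29.6% of all tested genes. Members near the floor without TSA passed the filter on low counts only where TSA-treated libraries expressed them. The share and the median can thus be partly set by the filter. Cdx2 (chromosome 5, 147300900 to 147307249), the factor that specifies trophectoderm, had 25.0 and 21.3 CPM in TSA-treated cells, 0.411 and 0.582 in TKO DMSO and 3.85 and 1.22 in untreated cells (log2 difference -5.53 ± 0.49 (SE), edgeR adjusted p = 7.8e-06). Hand1, a factor of trophoblast giant cells, had 16.3 and 24.2, 1.16 and 1.46 and 0.999 and 0.729 CPM in the same order (log2 difference -3.94 ± 0.30 (SE), edgeR adjusted p = 3.3e-06). Hand1 was high in the TSA-treated libraries alone, whereas Cdx2 in TKO cells also lay below untreated cells. The simple epithelial keratins Krt18 and Krt8 were abundant: Krt18 had 679.9 and 622 CPM in TSA-treated cells and 28.4 and 38.9 in TKO DMSO, and Krt8 had 498 and 430.1 against 24 and 36.7 CPM. Untreated cells lay between at 351 and 247 and 366 and 216 CPM. The 5 trophoblast markers fixed for the check of cell types were all called, and summed to 80.4 and 85.0 CPM in TSA-treated cells, 5.41 and 7.35 in TKO DMSO and 18.8 and 18.2 in untreated cells. Their part in the result was not tested.

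Mesenchymal and extracellular matrix genes had the same direction. Of 36 tested, 30 were called higher in TSA-treated cells, all at least 2-fold, 2 higher in TKO DMSO, and 4 were not called (median -2.61, or -2.47 with Twist2, which had no counts in TKO DMSO, at its bound). Col1a2, a chain of type I collagen, had 30.8 and 40.0 CPM in TSA-treated cells, 1.09 and 1.6 in TKO DMSO and 11.3 and 18.1 in untreated cells (log2 difference -4.71 ± 0.36 (SE), edgeR adjusted p = 3.3e-06). S100a6, a calcium-binding protein, had 363 and 389, 27.0 and 32.5 and 121 and 79.8 CPM in that order (log2 difference -3.66 ± 0.20 (SE), edgeR adjusted p = 7.4e-07). Both were high with TSA and low in TKO cells, with untreated cells between. For other members the TKO libraries alone were low. Thbs1 and Tagln, named after their values were seen, are a matrix glycoprotein and an actin-binding protein of smooth muscle. Thbs1 had 236 and 193 CPM in TSA-treated cells, 15.2 and 8.66 in TKO DMSO and 272 and 125 in untreated cells, and Tagln had 405 and 189.5, 20.5 and 7.64 and 351 and 153 CPM. The wild type replicates of these genes lay up to over 2-fold apart, yet none fell to the TKO DMSO levels.

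Untreated cells were close to wild type TSA only for 10 of the 30, between the groups for 13, close to TKO DMSO only for 4 and above both for Cav1, Acta2 and Col3a1. Cav1, the main protein of caveolae, had 19 and 12.2 CPM in untreated cells, 6.29 and 5.37 in TSA-treated cells and 0.137 and 0.0728 in TKO DMSO. Of 10 fibroblast markers fixed for the check of cell types, 8 were tested and all 8 were called higher in TSA-treated cells. Their summed level was 81.5 and 97.8 CPM in TSA-treated cells, 11.4 and 11.1 in TKO DMSO and 40.3 and 47.3 in untreated cells, and Twist2 was at 0 in both TKO DMSO libraries and Lum in 1. The part of other cells in the cultures in this result was not tested. Twist1 and Fn1, named after their values were seen, were the 2 genes higher in TKO DMSO, Twist1 at 11.0 and 9.61 against 6.17 and 5.98 CPM and Fn1 at 317 and 402 against 253 and 210.1.

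**Figure D5:**
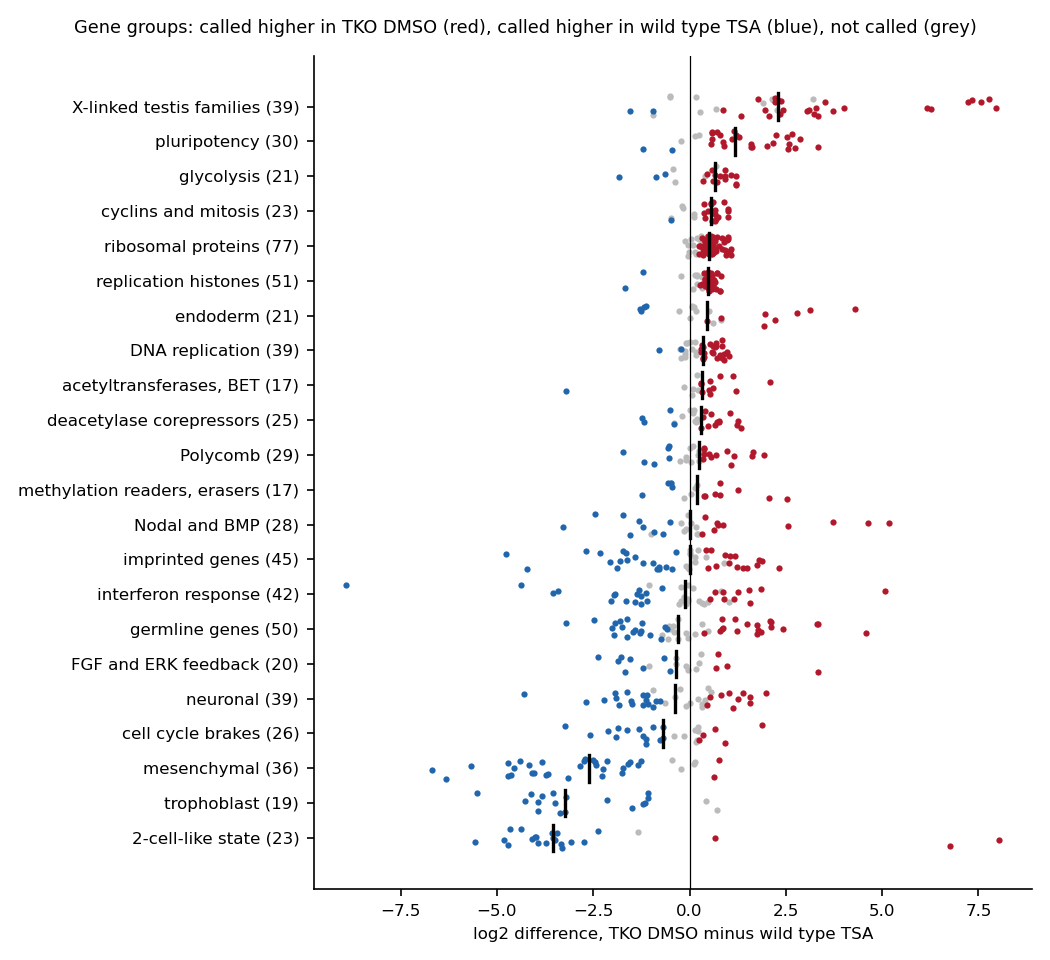
Log2 difference, TKO DMSO minus wild type TSA, of the tested genes of each gene group shown, with the number of tested genes in parentheses. Red points are called higher in TKO DMSO, blue points called higher in wild type TSA, grey points not called, and the black bar is the median. X-linked testis families have a median of 2.29 and pluripotency genes of 1.18, and the 2-cell, trophoblast and mesenchymal groups lie at -3.54, -3.23 and -2.61.

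Genes that halt the cell cycle or respond to damage leaned to wild type TSA, with 14 of 26 called higher there and 5 higher in TKO DMSO (median -0.69). The 5 became 3 with upper quartile factors, with total counts only, without TKO DMSO library 1 or without wild type TSA library 1. Pmaip1 (Noxa), a pro-apoptotic BH3 protein, had 130.3 and 118 CPM in TSA-treated cells and 21.3 and 20.3 in TKO DMSO (log2 difference -2.58 ± 0.14 (SE), edgeR adjusted p = 8.8e-07), and Gadd45a had 68.2 and 67.1 against 17.5 and 18.5 CPM. Fas, a death receptor, had 5.56 and 5.91 against 0.753 and 0.437 CPM. For these 3 genes untreated cells lay between the groups. Cdkn1b (p27) went the other way, at 57.9 and 53 CPM in TKO DMSO and 17.7 and 12.4 in TSA-treated cells, with untreated cells at 49.2 and 60.3 (log2 difference 1.88 ± 0.19 (SE), edgeR adjusted p = 1.5e-05).

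Growth and replication genes leaned to TKO cells by small amounts. Abundant genes as a whole leaned the same way. Of the 3956 tested genes of highest level, 1799 were called higher in TKO DMSO and 590 higher in TSA-treated cells (median 0.21). Gene groups were not matched for level, so a lean beyond that of abundant genes was not tested. Of 23 tested cyclins, kinases and mitotic genes, 17 were called higher in TKO DMSO and Ccne1 alone, named after its values were seen, higher in TSA-treated cells, or 2 genes without either wild type DMSO library (median 0.56). Plk1, a mitotic kinase, had 104 and 113 CPM in TKO DMSO and 56.3 and 52.3 in TSA-treated cells, and Cdk2 had 106 and 113 against 63.3 and 54.8 CPM. Of 39 replication genes, 25 were called higher in TKO DMSO and 2 higher in TSA-treated cells (median 0.34), which became 16 and 8 with total counts only; the 2 became 1 without any 1 of the 6 TKO DMSO, wild type TSA or TKO TSA libraries. Mcm5, of the replicative helicase, had 1324 and 1245 against 734 and 658 CPM. Of 51 tested replication-dependent histone genes, 36 were called higher in TKO DMSO (median 0.48), or 21 with total counts only. The 2 called higher in TSA-treated cells were the testis histones Hist1h2ba and Hist1h2aa, Hist1h2ba at 82.5 and 103 against 24.2 and 33.3 CPM. Of 19 tested linker and replacement histones, 10 were called higher in TKO DMSO and 5 higher in TSA-treated cells (median 0.26). The 5 were fewer without TKO DMSO library 1. The called shares were 52.6% and 26.3% of the group, beside 28.0% and 29.6% of all tested genes. The linker histone Hist1h1d (H1.3) had 747 and 700.5 CPM in TKO DMSO and 373 and 338 in TSA-treated cells, and H2afy2 (macroH2A2) had 16.9 and 18.0 against 5.80 and 5.5 CPM (log2 difference 1.62 ± 0.17 (SE), edgeR adjusted p = 2.4e-05). For both genes the TKO libraries lay near the untreated ones, at 734 and 694 and 17.2 and 16.1 CPM.

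Ribosomal protein genes were called higher in TKO DMSO for 60 of 77 (median 0.51), or 39 without TKO DMSO library 1, and 1 was called higher in TSA-treated cells when wild type TSA library 2 was left out. Rpl12 had 67.5 and 72.9 CPM in TKO DMSO and 35.3 and 31.3 in TSA-treated cells (log2 difference 1.08 ± 0.12 (SE), edgeR adjusted p = 2.7e-05). Of 21 glycolysis genes, 14 were called higher in TKO DMSO and 3 higher in TSA-treated cells (median 0.67); the 3 became 5 with upper quartile factors, total counts only, the 4 libraries alone or the replicate block. Pfkl, the liver-type phosphofructokinase, had 442 and 499.6 against 214 and 196 CPM (log2 difference 1.20 ± 0.11 (SE), edgeR adjusted p = 8e-06), and Ldha, which makes lactate, had 798 and 859.8 against 404 and 383 CPM. Untreated cells were close to TKO DMSO only for 10 of the 14. Eno2, the neuronal enolase, was higher in TSA-treated cells at 11.4 and 11.8 against 3.216 and 3.35 CPM. Reads of ribosomal protein and glycolysis genes can be shared with their many processed pseudogenes, so their levels are uncertain. Sterol synthesis genes were mostly not called, 15 of 23, with 3 higher in TKO DMSO (6 without wild type TSA library 1) and 5 higher in TSA-treated cells. Their median of 0.09 turned to -0.03 with upper quartile factors and -0.09 with total counts only, and was 0.22 without wild type TSA library 1.

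Of 42 interferon-stimulated and antigen-presentation genes, 10 were called higher in TKO DMSO, 16 higher in TSA-treated cells and 16 were not called (median -0.11). The called shares were 23.8% and 38.1% of the group, beside 28.0% and 29.6% of all tested genes. Usp18 (chromosome 6, 121245906 to 121270917), an inhibitor of interferon signalling, had 3.42 and 4.83 CPM in TSA-treated cells and no counts in TKO DMSO, so it was at least 19.5-fold above the floor (log2 difference -8.91 ± 0.89 (SE), edgeR adjusted p = 2.4e-05). Ifih1 (MDA5), a sensor of double-stranded RNA, had 5.68 and 7.75 CPM against 0.342 and 0.800 in TKO DMSO. Untreated cells lay between the groups for both. Tgtp1, an interferon-inducible GTPase, had the opposite direction, at 3.35 and 3.71 CPM in TKO DMSO and 0.122 and 0.0680 in TSA-treated cells, and Ifitm3, named after its values were seen, had 35.2 and 31.1 against 16.1 and 13.9 CPM.

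Of 39 neuronal genes, 10 were called higher in TKO DMSO and 17 higher in TSA-treated cells (25.6% and 43.6% of the group, beside 28.0% and 29.6% of all tested genes), or 11 in place of 17 without TKO DMSO library 2 (median -0.38). Vgf, a neurosecretory protein, had 17.6 and 21.3 CPM in TSA-treated cells and 1.09 and 0.873 in TKO DMSO (log2 difference -4.29 ± 0.27 (SE), edgeR adjusted p = 1.2e-06). Tubb3 and Stmn2, named after their values were seen, are cytoskeletal genes of neurons. Tubb3 had 194 and 189 CPM in TKO DMSO against 82.0 and 65.4, and Stmn2 had 210.2 and 223 against 112 and 86.9, with untreated cells close to TKO DMSO for both. The 5 neuron markers fixed for the check of cell types summed to 425 and 429.8 CPM in TKO DMSO, 235 and 196 in TSA-treated cells and 403 and 388 in untreated cells. The sum does not hold for each marker. Of the 4 that were tested, 2 were called higher in TKO DMSO and 2, Map2 and Snap25, higher in TSA-treated cells. Hox genes were near the floor, and 15 of 40 were tested. Of these, 3 (20%) were called higher in TKO DMSO and 5 (33.3%) higher in TSA-treated cells, beside 28.0% and 29.6% of all tested genes. The counts became 1 and 3 without wild type TSA library 1, and the 5 also became 3 without wild type TSA library 2.

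Of 29 tested Polycomb genes, 13 were called higher in TKO DMSO (8 with total counts only). Another 6 were called higher in TSA-treated cells (3 without TKO DMSO library 2), and the median was 0.26. These are 44.8% and 20.7% of the group, beside 28.0% and 29.6% of all tested genes. The 3956 tested genes of highest level leaned the same way, with 1799 and 590 called (median 0.21). Phc1 had 380.2 and 394 CPM in TKO DMSO and 149 and 99.9 in TSA-treated cells, while its paralogue Phc2 had 22.8 and 21.5 against 68.7 and 79.2. Subunits of the same position in PRC1 thus differed in opposite directions, with untreated cells close to TKO DMSO for both at 390.0 and 403 and 28 and 23.1 CPM. Clustered protocadherins, cell adhesion genes on chromosome 18 with a promoter for each variable exon, were called in both directions. The 14 Pcdha genes summed to 11.3 and 9.04 CPM in TSA-treated cells, 2.12 and 1.53 in TKO DMSO and 3.28 and 1.62 in untreated cells. They share exons, so their single counts are uncertain. Of 34 tested protocadherins, 10 were called higher in TSA-treated cells (6 without wild type TSA library 1) and 4 higher in TKO DMSO. The share higher in TSA-treated cells, 29.4%, is near the 29.6% of all tested genes, and a difference between subclusters was not tested.

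Imprinted genes, where methylation of 1 parental copy sets expression, were called in both directions, also within a locus. Of 45 tested, 15 were called higher in TKO DMSO, 19 higher in TSA-treated cells and 11 were not called, so that 33.3% and 42.2% of the group were called, beside 28.0% and 29.6% of all tested genes. Their median of 0.01 became -0.11 with upper quartile factors and -0.18 with total counts only. Igf2, a fetal growth factor expressed from the paternal copy, had 144 and 221 CPM in TSA-treated cells, 9.58 and 9.97 in TKO DMSO and 62.8 and 80.1 in untreated cells (log2 difference -4.22 ± 0.26 (SE), edgeR adjusted p = 1.2e-06). TSA-treated libraries were above, and TKO libraries below, untreated ones. Peg10, a retrotransposon-derived placental gene, had 2193 and 2506 CPM in TSA-treated cells and 549 and 574 in TKO DMSO (log2 difference -2.07 ± 0.12 (SE), edgeR adjusted p = 8.8e-07), with untreated cells close to TKO DMSO at 661 and 559. Nnat, also paternally expressed, had 115 and 82.4 against 17.9 and 12.7 CPM.

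Kcnq1ot1 and Rian, noncoding RNAs of imprinted clusters, were higher in TKO cells. Airn, another such RNA, was among the 19 imprinted genes called higher in TSA-treated cells. Kcnq1ot1, the antisense RNA of the Kcnq1 cluster named after its values were seen, had 879 and 703 CPM in TKO DMSO, 338 and 330.2 in TSA-treated cells and 404 and 399 in untreated cells (log2 difference 1.24 ± 0.12 (SE), edgeR adjusted p = 1.2e-05). Its neighbour Cdkn1c, which that RNA is known to repress and which was named in the same way, had 37.1 and 35.0 CPM in TKO DMSO and 96.7 and 126 in TSA-treated cells, and both genes stood apart in the TKO libraries. Rian, of the Dlk1-Dio3 cluster and also named after its values were seen, had 823 and 728 CPM in TKO DMSO, 234 and 185 in TSA-treated cells and 521 and 499 in untreated cells, so its libraries were ordered TKO, untreated, TSA.

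H19 and Grb10 were at like levels in the compared groups while both groups stood away from untreated cells. H19 (chromosome 7, 142575532 to 142578146), the noncoding RNA next to Igf2 and named after its values were seen, had 34.5 and 73.4 CPM in untreated cells, 205 and 426 in TSA-treated cells and 267 and 425 in TKO DMSO. Its difference was 0.13 ± 0.37 (SE), not called (edgeR adjusted p = 0.77). Grb10 (chromosome 11, 11930499 to 12037420), a growth-restraining adaptor named in the same way, had 466 and 425 CPM in untreated cells, 137 and 115 in TSA-treated cells and 132 and 121 in TKO DMSO, a difference of 0.01 ± 0.11 (SE) (edgeR adjusted p = 0.97). The compared libraries overlapped for both genes, though the missing call does not show equal levels, least of all for H19 with its wide spread. Phlda2, in the Kcnq1 cluster and also chosen after its values were seen, averaged 31.8 CPM in untreated cells, 16.0 in TSA-treated cells and 15.7 in TKO DMSO.

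The 5 transcription factors assayed by ChIP-seq in the series differed little as RNA. Gabpa had 304 and 300.4 CPM in TKO DMSO and 182 and 193 in TSA-treated cells (log2 difference 0.68 ± 0.12 (SE), edgeR adjusted p = 0.00065). Nrf1, whose binding is known to be blocked by CpG methylation, had 119 and 110.0 against 95 and 95.7 CPM. It was called at 0.26 ± 0.10 (SE) (edgeR adjusted p = 0.038), but the value was 0.14 with upper quartile factors and 0.08 with total counts only, and the call was lost without any 1 of the 4 compared libraries. Sp1, Yy1 and Max were not called, at 0.13 ± 0.09 (SE), 0.17 ± 0.12 (SE) and -0.00 ± 0.10 (SE).

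Single genes named for the size of their difference or their level marked both ends. Il24, a cytokine, had 5.62 and 2.85 CPM in TSA-treated cells and no counts in TKO DMSO, so it was at least 20.0-fold above the floor, with 1.64 and 0.486 CPM in untreated cells. Mt1, a metallothionein that binds zinc, had 269 and 313 CPM in TSA-treated cells, 49.7 and 60.3 in TKO DMSO and 69.4 and 66.8 in untreated cells (log2 difference -2.41 ± 0.13 (SE), edgeR adjusted p = 7.4e-07), so TSA-treated cells alone were high. Tpm1, a tropomyosin, had 913 and 652 CPM in TSA-treated cells, 191 and 142 in TKO DMSO and 916 and 548 in untreated cells (log2 difference -2.23 ± 0.23 (SE), edgeR adjusted p = 2.1e-05), so TKO cells alone were low. Upp1, a uridine phosphorylase, had 454 and 489 CPM in TKO DMSO, 22.7 and 25.3 in TSA-treated cells and 214 and 297 in untreated cells (log2 difference 4.30 ± 0.17 (SE), edgeR adjusted p = 1.7e-07), a ratio of 19.7. Trh, the thyrotropin-releasing hormone precursor, had 473 and 614, 109 and 73.9 and 737 and 799 CPM in the same order, so the TSA-treated libraries were low. A930011O12Rik had 14.5 and 19.3 CPM in TKO DMSO and 0.672 and 0.272 in TSA-treated cells, a ratio of 35.8.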

How the data were processed

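RNA was measured in 8 libraries (4 groups, 2 replicates each) prepared with ribosomal RNA depletion and a directional kit and sequenced as pairs, per the labels' protocols. The authors deposited raw counts, 1 column a library, for 23420 genes on mm10. TopHat2 2.0.13, featureCounts 1.4.5-p1 and edgeR 3.22.3 are named in the submitters' processing notes, without roles. The strand setting and the treatment of reads that map to several places are not given in the sources used here. Overlapping genes, antisense genes and near-identical copies are therefore uncertain. Every count belonged to a named gene, but 27 names had been turned into dates and are not reported by name. Total counts ran from 13280631 to 15542527, so that 3 counts, the floor used for undetected genes, correspond to 0.183 to 0.243 normalised CPM.

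Counts were fitted with edgeR 4.0.16 in R 4.3.3 (filterByExpr, TMM factors, glmQLFit and glmQLFTest, two-sided, 1 mean per group, no block). All 8 libraries entered the fit, which left 4 residual degrees of freedom. The common biological coefficient of variation was 10.3%. Genes were called at a Benjamini-Hochberg adjusted p below 0.05 over 15822 tested genes. SE is the absolute log2 difference divided by the square root of F, an approximation. An exact permutation test of 2 libraries against 2 cannot go below 0.333, so all p-values rest on the model. In simulated data for these genes, 50 genes above 1 CPM were changed at each fold, as many up as down, and the others were left unchanged. Of genes raised 2-fold and 4-fold, 45 of 50 and 50 of 50 were recovered. Of genes lowered by the same folds, 40 of 50 and 47 of 50 were recovered, and 4 of 15244 unchanged genes were called. So few and balanced changes do not cover a contrast with 57.6% of genes called, so error rates under such a shift were not tested.

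Folds between groups are ratios of mean normalised CPM, or lower bounds against 3 counts per library, or ratios with a 95% exact counting interval where the lower group had at most 3 counts per library. The position of untreated cells used a pseudocount of 0.25 CPM. The members and the 30 gene lists were chosen with earlier results of these data known. The genes named were the 12 largest differences in each direction among called genes that averaged 1 CPM or more and whose libraries did not overlap, the 8 of highest CPM per kilobase in each direction among called genes at least 4-fold apart, up to 5 called genes of each list, the deleted and assayed genes, H1f0 and Cdkn1a. A few genes that this rule names are not reported here. Others are said to have been named after their values were seen, except genes given only as members of a count or a family. Promoters of 300 bases came from RefSeq (GRCm38.p6). Alternatives were DESeq2 1.42.0, 3 other scalings, no filter on low counts, only the 4 libraries compared, a replicate block, another width of closeness and each library left out. The other 118 samples of the series were not used here.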

Additional observations from a re-analysis of the deposited data

How the results depend on the processing

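The number of called genes stayed within 1.5 times of 9115 in all 15 alternatives: 7071 to 9630 with 1 library left out, 7921 by DESeq2, 9078, 8881 and 8883 with relative log expression, upper quartile and no factors, 9369 without the filter on low counts and 9415 with only the 4 libraries compared. The replicate numbers were not used as pairs, since each group has only 2; deviations of libraries of the same number correlated across genes at 0.0673 to 0.325 over the 6 pairs of groups and at 0.105 for TKO DMSO and wild type TSA, and a replicate block gave 9827 calls. Of 3358 combinations of a named gene and an alternative, 43 lost the call and none turned direction; the genes that lost it included Nrf1, H1f0, Hdac1, Hdac2, Hdac8, Rhox5 and Gata4. Of 450 combinations of a list median and an alternative, 73 moved by more than the spread between replicates, 42 of them under upper quartile factors or total counts only. With closeness widened to 2-fold, untreated cells lay between the groups for 45 in place of 216 genes higher in TKO DMSO and for 198 in place of 669 higher in TSA-treated cells, below both for 28 in place of 52 and 42 in place of 169, and close to both for 418 in place of 26 and 602 in place of 40. Promoter classes were not compared, because only 77.9% of tested genes had a promoter sequence. Depth limits genes near 3 counts per library.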
